A study of Rattus norvegicus with 20 samples.

Results

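The genes described here make, store, recapture and sense dopamine. They are 9 genes, Th, Ddc, Slc18a2, Slc6a3 and the receptor genes Drd1, Drd2, Drd3, Drd4 and Drd5, and were found by their symbols in the gene names of the array. Of the 30367 probes of the array that are not controls, 12 belong to them. A filter on dim probes required a signal well above background, as flagged by the scanner's software, in all 4 samples of at least 1 condition. It kept 8 of the 12 probes, of Th, Ddc, Slc18a2, Slc6a3, Drd5 and Drd2, against 19883 probes of 17086 genes in all. Drd1, Drd3 and Drd4 did not pass, so their levels are given without a test.

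Samples were hypothalamic arcuate nuclei of 20 female Sprague-Dawley rats on postnatal day 15, 4 per condition. In SNS, the mother received saline on gestational day 15, and the pup had no spasms and received saline. In BNS, the mother received betamethasone, a glucocorticoid, in doses of 0.4 mg/kg on that day, and the pup again had no spasms and received saline. BYS, BYA and BYP pups had the same prenatal betamethasone and received N-methyl-D-aspartate (NMDA), which triggers the spasms, on postnatal days 12, 13 and 15. They were treated with saline in BYS, with adrenocorticotropic hormone (ACTH) in BYA and with PMX53, an antagonist of the complement receptor C5ar1, in BYP, per the labels on days 13, 14 and 15 before the NMDA, while the study's methods start a day earlier. The spasms were thus studied in betamethasone-exposed pups only, and NMDA and spasms were always given together. The tissue is a mixture of cells, in which fewer cells of a type and less RNA per cell cannot be told apart.

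Each condition had a slide of its own, and BYA had a second one for replicate 3, so slide and condition cannot be told apart. Signal over background also followed the slides, with a median ratio of 6.89 in SNS, 15.9 in both BNS and BYS, 9.12 in BYP and 7.48 in BYA. For BYA replicate 3 the channel is uncertain, since its dye label and the order in the name of its raw data differ, and its label was used. Without it, 22 of the 24 BYA fold changes of dopamine genes stayed on the same side of the threshold, and the other 2 (Slc6a3 and Drd5 against SNS) are given both ways. Among the defining markers of the arcuate nucleus, Agrp, Npy, Pomc, Kiss1 and Ghrh were well above background in all 20 samples, as were 12 of the 16 genes of that list. Of genes typical of midbrain dopamine neurons, 0 of 7 were well above background in all 20 samples and 5 passed the filter, with En2 in 0 samples, Pitx3 in 7, Foxa1 in 9, En1 in 10, Slc10a4 in 12, Lmx1b in 16 and Aldh1a1 in 19. Of 7 pituitary genes, Prl was well above background in 0 samples, Gh1 in 1, Tshb in 2, Fshb in 5, Pou1f1 in 8, Cga in 15 and Lhb in all 20.

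Dopamine is made from tyrosine in a pair of steps. Tyrosine hydroxylase (Th) is rate-limiting and needs the cofactor tetrahydrobiopterin, and aromatic amino acid decarboxylase (Ddc) completes the synthesis. The vesicular monoamine transporter (Slc18a2) loads dopamine into vesicles and the dopamine transporter (Slc6a3) takes it up again from outside the cell. Drd1 and Drd5 are receptors that stimulate adenylyl cyclase, whereas Drd2, Drd3 and Drd4 inhibit it. In the arcuate nucleus, tuberoinfundibular neurons release dopamine into the portal blood, which restrains prolactin release from the pituitary.

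The probes below are those of the dopamine genes marked as lying in coding sequence. The Drd3 probe and the dimmer Slc6a3 probe did not pass the filter and were not part of the main test. Each is 60 bases long, was read from the array's own design and runs 5′ to 3′, and in each at least 1 reading frame is free of stop codons before its last codon. The dimmer Ddc probe lies on rn4 chr14:92706750-92706809 (minus strand), the dimmer Drd2 probe on chr8:52706533-52706592 (plus strand) and the dimmer Slc6a3 probe on chr1:30520827-30520886 (minus strand). The Drd5 probe lies on chr14:77768060-77768119 (minus strand) and the Drd3 probe on chr11:58446987-58447046 (minus strand). Capitals mark the stop codon that ends the Drd5 probe.
Ddc: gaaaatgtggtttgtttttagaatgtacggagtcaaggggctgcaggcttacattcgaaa
Drd2: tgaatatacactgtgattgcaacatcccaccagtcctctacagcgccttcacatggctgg
Slc6a3: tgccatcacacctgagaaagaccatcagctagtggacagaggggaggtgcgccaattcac
Drd5: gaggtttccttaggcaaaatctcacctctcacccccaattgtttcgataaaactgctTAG
Drd3: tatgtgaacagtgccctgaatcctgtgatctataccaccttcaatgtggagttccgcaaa

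The brighter probe of Ddc starts at base 1854 of the transcript and the dimmer one at base 1152. Those of Drd2 start at bases 2670 and 1532, and those of Slc6a3 at bases 2914 and 1863. In each of these genes the probe nearer the 3′ end was the brighter one.

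Few of the dopamine genes passed the test. Ddc, the second enzyme of the synthesis, was 1.28-fold lower in BYP than in SNS, and Slc6a3, the transporter that recaptures dopamine, read 1.38-fold higher in BYA than in SNS on a probe that was well above background in only 2 of 4 BYA and 1 of 4 SNS samples. These were the only calls among the 6 genes tested in 10 comparisons at an adjusted p under 0.05, from a single limma model of the 20 samples that included the dye. Of all genes, 28.9% were called between BYP and SNS and 31.3% between BYA and SNS, so 1 of 6 genes in each is below the background share. Both calls were lost when the array was a random block (limma adjusted p = 0.0853 for Ddc and 0.149 for Slc6a3). Within a condition, array mates were 0.261 apart on the log2 scale on average and other samples 0.362.

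In the other comparisons limma called 0 of the 6 genes. Between BNS and SNS, where 28.6% of all genes were called, 1 dopamine gene had an unadjusted p under 0.05 against 41.4% of all genes. Between BYS and SNS, where 27.1% were called, 3 dopamine genes did, against 40.2%. In BYA and BYP against SNS, 3 and 2 did, against 42.4% and 41.5%. Far fewer genes were called among the betamethasone-exposed conditions, 0.0293% between BYS and BNS, 0% between BYA and BYS, 0.0351% between BYP and BYS, 0.158% between BYP and BYA, 0.117% between BYA and BNS and 1.5% between BYP and BNS. In that order 0, 0, 2, 1, 1 and 0 dopamine genes had an unadjusted p under 0.05, against 6.92%, 8.07%, 8.49%, 13.6%, 13.1% and 17.8% of all genes. The methods' t-test at an unadjusted p under 0.05 gave 1 dopamine gene in each comparison with SNS, against 38.1% of all genes for BNS, 31.6% for BYA, 32.8% for BYP and 33.8% for BYS. In the 6 comparisons just listed it gave 1, 0, 3, 1, 1 and 0, against 8.82%, 6.33%, 6.98%, 8.66%, 11.8% and 17.2% of all genes. After Benjamini-Hochberg adjustment it called 1 gene, Ddc between BNS and SNS, over the 10 comparisons. Limma's F-test for any difference among the 5 conditions called 30.3% of all genes and 0 of the 6, with 2 at an unadjusted p under 0.05 (Ddc and Slc18a2). Their adjusted p was 0.0953 and 0.053.

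**Figure D1:**
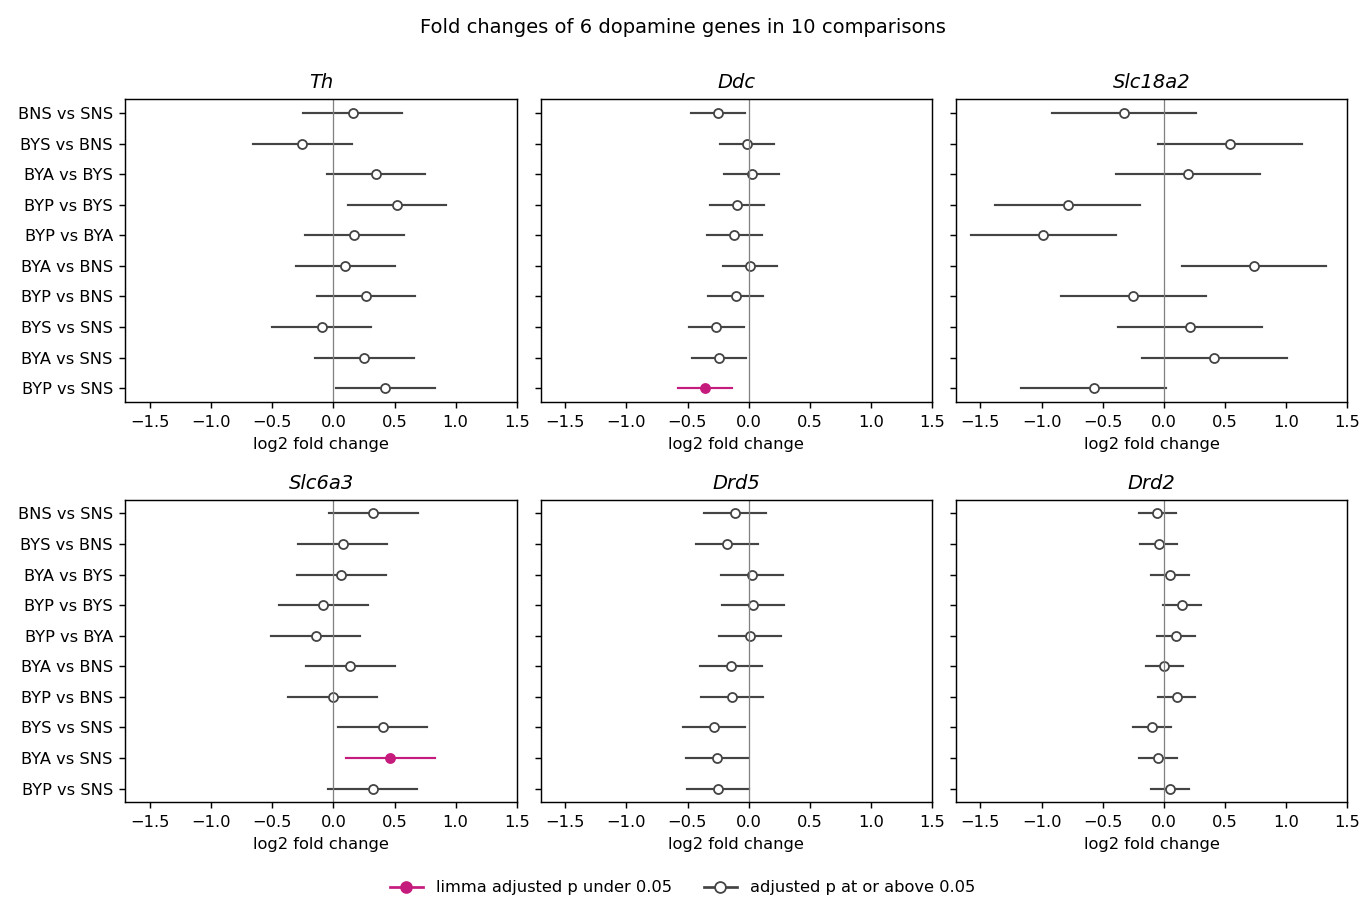
Log2 fold change (x axis) of the 6 dopamine genes that passed the filter in the 10 comparisons (y axis), with points for the limma estimate and lines for its 95% interval. Filled points are the 2 calls, Ddc in BYP against SNS and Slc6a3 in BYA against SNS, and the intervals of Slc18a2 are the widest.

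Th, the rate-limiting enzyme, was well above background in all 20 samples. On the log2 scale its level was 11.78, 12.12, 12.81 and 12.17 in the SNS samples and 12.29, 12.41, 12.44 and 12.37 in BNS. It was 11.88, 12.07, 12.24 and 12.31 in BYS, 12.23, 12.58, 12.26 and 12.82 in BYA, and 12.54, 12.92, 12.88 and 12.23 in BYP. SNS spread widest, with an SD of 0.43, and BNS least, with an SD of 0.06, and the values of every pair of conditions overlapped. From high to low the means ran BYP, BYA, BNS, SNS and BYS, and 0 of the 4 neighbouring pairs in that order were called.

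Between BYP and BYS, which differ in PMX53 and also in slide, Th differed by 0.52 ± 0.19 (SE, n = 4 and 4; limma adjusted p = 0.458). The direction depended on the scaling. With channels scaled to a common median instead of quantile normalized, it was -0.05, where the median of all genes was -0.17, while it stayed between 0.42 and 0.68 when single samples were left out. Between BYP and SNS, Th differed by 0.42 ± 0.19 (limma adjusted p = 0.104), and by -0.11 under median scaling, where the median of all genes was also -0.11. Without SNS replicate 3, the SNS sample with the most Th, this difference was 0.65 with an adjusted p of 0.00923 and BYA against SNS passed as well, and without BYP replicate 4 the adjusted p was 0.0334. Between BYA and BYS, which differ in ACTH and also in slide, the difference was 0.35 with a 95% interval from -0.05 to 0.75. It was 0.41 without BYA replicate 3. Between BNS and SNS, which differ in betamethasone and also in slide, the difference was 0.16 with an interval from -0.25 to 0.56.

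**Figure D2:**
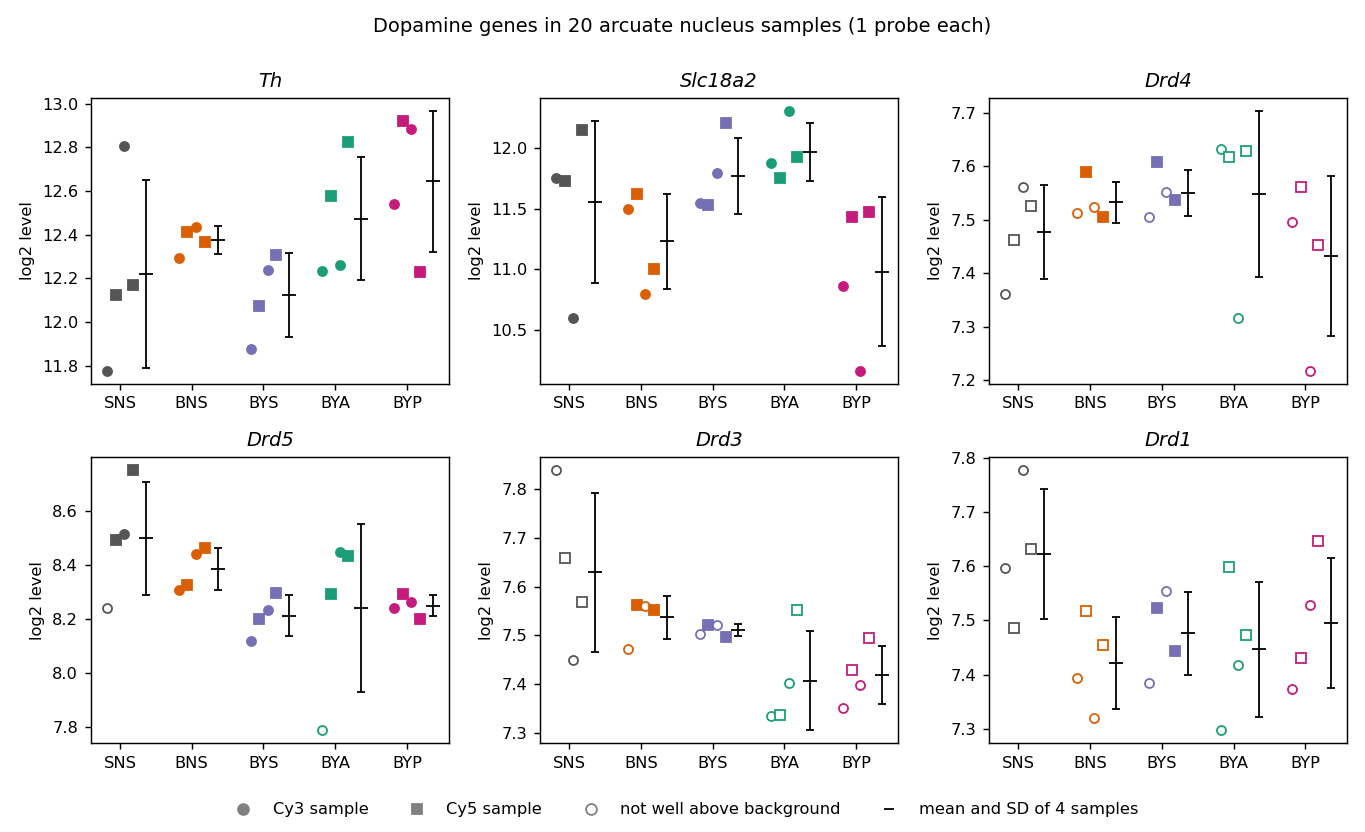
Log2 level (y axis) of 6 dopamine genes measured by 1 probe each, in the 5 conditions (x axis), with circles for Cy3 samples, squares for Cy5 samples, open symbols for probes not well above background and bars for the mean and SD of 4 samples. Th and Slc18a2 are well above background in all 20 samples, whereas Drd1, Drd3 and Drd4 have few filled symbols, all of them squares.

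Ddc was well above background in all 20 samples with both of its probes. The mean of the probes was 11.35, 11.37, 11.30 and 11.43 in SNS and 11.21, 11.16, 11.05 and 11.04 in BNS, so each BNS sample lay below each SNS sample. It was 10.90, 11.34, 11.13 and 11.04 in BYS, 11.10, 11.12, 11.24 and 11.03 in BYA, and 10.99, 11.26, 11.01 and 10.77 in BYP. BYA and BYP also lay wholly below SNS, and BYS overlapped it by its replicate 2. Of all genes, 17.1%, 13% and 13.4% lay wholly below SNS in BNS, BYA and BYP.

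Relative to SNS, Ddc differed by -0.25 in BNS, -0.26 in BYS, -0.24 in BYA and -0.36 in BYP, each ± 0.11 (SE, n = 4 and 4). The limma adjusted p was 0.0818, 0.0719, 0.092 and 0.0177, so BYP passed the test and the others did not. Among the 4 betamethasone-exposed conditions the means lay between 11.01 and 11.13, and whether BYP differs from the other 3 is answered by its own comparisons, with differences of -0.09 from BYS (95% interval -0.32 to 0.13), -0.12 from BYA (-0.34 to 0.11) and -0.11 from BNS (-0.33 to 0.12). The call in BYP rested in part on BYP replicate 4, the lowest of all samples, without which the difference was -0.27 (limma adjusted p = 0.0693). Over the alternatives other than leaving out a sample, it lay between -0.75 and -0.36, with an adjusted p from 0.00153 to 0.0853.

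Against SNS, both probes of Ddc were lower in every other condition, whereas among the other conditions they differed in sign in 4 of 6 comparisons. The brighter one read 12.66, 12.70, 12.56 and 12.84 in SNS and 12.20, 12.60, 12.25 and 12.02 in BYP, and the dimmer one, whose sequence is given above, 10.05, 10.05, 10.04 and 10.03 in SNS and 9.78, 9.92, 9.77 and 9.52 in BYP. Tested by itself over all probes kept, an alternative chosen after the data were seen, the brighter probe differed by -0.42 ± 0.12 (limma adjusted p = 0.0136) between BYP and SNS and by -0.33 ± 0.12 (adjusted p = 0.0465) between BNS and SNS. The dimmer one differed by -0.30 ± 0.12 (adjusted p = 0.0622) between BYP and SNS and by -0.18 ± 0.12 (adjusted p = 0.256) between BNS and SNS.

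**Figure D3:**
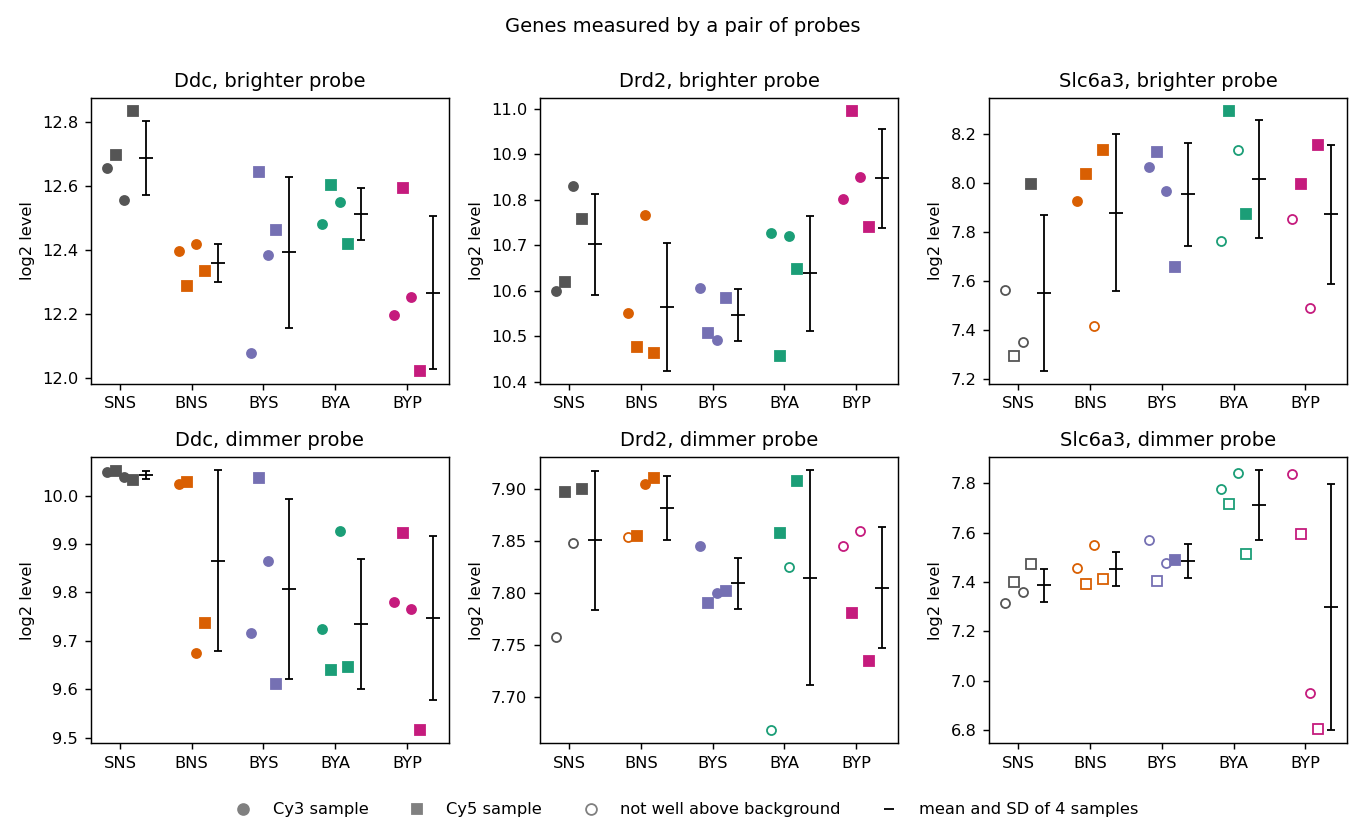
Log2 level (y axis) from the brighter probe (top row) and the dimmer probe (bottom row) of Ddc, Drd2 and Slc6a3 in the 5 conditions (x axis), with circles for Cy3 samples, squares for Cy5 samples, open symbols for not well above background and bars for the mean and SD of 4 samples. Both Ddc probes are highest in SNS, the brighter Drd2 probe is highest in BYP, and the dimmer Slc6a3 probe is filled in 1 sample.

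Slc18a2, which loads dopamine and other monoamines into vesicles, varied more than any other dopamine gene that passed the filter, over a range of 2.14 on the log2 scale. Its level was 11.75, 11.73, 10.60 and 12.15 in SNS and 11.50, 11.62, 10.80 and 11.00 in BNS. In BYS it was 11.55, 11.53, 11.80 and 12.20, in BYA 11.88, 11.76, 12.31 and 11.93, and in BYP 10.86, 11.43, 10.16 and 11.47. BYA lay wholly above BNS and BYP, and BYS wholly above BYP, while SNS overlapped all other conditions. Of all genes, 4.64% lay wholly higher in BYA than in BNS, 3.38% wholly lower in BYP than in BYA and 2.15% wholly lower in BYP than in BYS.

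BYP against BYA gave the largest difference of any dopamine gene, -0.99 ± 0.28 or 1.98-fold lower (95% interval -1.58 to -0.40), with a limma adjusted p of 0.136. BYP was lower than BYS by a log2 difference of -0.79 ± 0.28 (adjusted p = 0.434), and BYA differed from BNS by 0.74 ± 0.28 (adjusted p = 0.281). None of the 3 passed the test. With median scaling, which called 16.5% of all genes there, BYP against BYS reached -1.26 (limma adjusted p = 0.0459). Over that comparison's alternatives the limma adjusted p ran from 0.0459 to 0.9999. With the slide as a random block, BYP against BYA had a limma adjusted p of 0.025 (0.025 to 0.48 over its alternatives). That block called 5.43% of all genes there, against 0.158% without it. It cannot separate slide from condition, since only BYA had more than 1 slide. Without BYP replicate 3 the differences were -0.76 from BYA and -0.56 from BYS, and without BYA replicate 3, whose channel is uncertain, BYA differed from BNS by 0.55 and BYP from BYA by -0.80. Between BYP and SNS the difference of -0.58 (adjusted p = 0.13) passed the test without SNS replicate 3.

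Some genes of neighbouring neurons were also extreme in the libraries lowest in Slc18a2. Hdc, which makes histamine in neurons that use the same vesicular transporter, was 12.66, 12.84, 12.20 and 13.61 in SNS and 13.02, 13.76, 12.02 and 13.41 in BYP, so replicate 3 was the lowest in both, as it was for Slc18a2. In BNS, Hdc was 13.10, 13.13, 13.21 and 13.28. Agrp, of the arcuate neurons that drive feeding, was highest in replicate 3 of SNS, BNS and BYP, at 14.94, 16.03 and 15.92, and so was Pomc, of the neurons that restrain it, at 15.08, 15.02 and 15.30. These 3 libraries were the lowest of their conditions in Slc18a2. Of the 14 arcuate genes with a value in each sample, replicate 3 was the highest in 9 and the lowest in 2 in SNS (Cartpt and Tac3), in 10 and 2 in BNS (Pdyn and Mc3r) and in 10 and 1 in BYP (Ghsr), against 4 and 3 in BYS and 1 and 4 in BYA. The part of these differences in the Slc18a2 values was not tested.

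Of the list of other monoamine neurons, 4 of 8 genes passed the filter, and their mean level ranged from 9.41 to 9.92 in SNS, in BNS from 9.71 to 10.01, in BYS from 9.55 to 9.75, for BYA from 9.78 to 9.86 and for BYP from 9.28 to 9.91. Hdc and Pnmt were well above background in all 20 samples, Slc6a2 in 14 and Tph1 in 12. Dbh, which turns dopamine into noradrenaline, was so in 7, Tph2 in 6, Slc6a4 in 1 and Fev in 0. Against SNS, limma called 2 genes of this list higher (Tph1 and Slc6a2) and 1 lower (Pnmt) in BNS, and 1 lower (Pnmt) in BYS. It called 0 in BYA and 0 in BYP. Of all genes, 15.1% were higher and 13.4% lower in BNS, and 12.6% lower in BYS. Of 14 arcuate genes with a value in each sample, the mean level ranged from 11.18 to 11.65 in SNS, in BNS from 11.10 to 11.58, in BYS from 11.09 to 11.47, for BYA from 11.22 to 11.47 and for BYP from 11.12 to 11.71.

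**Figure D4:**
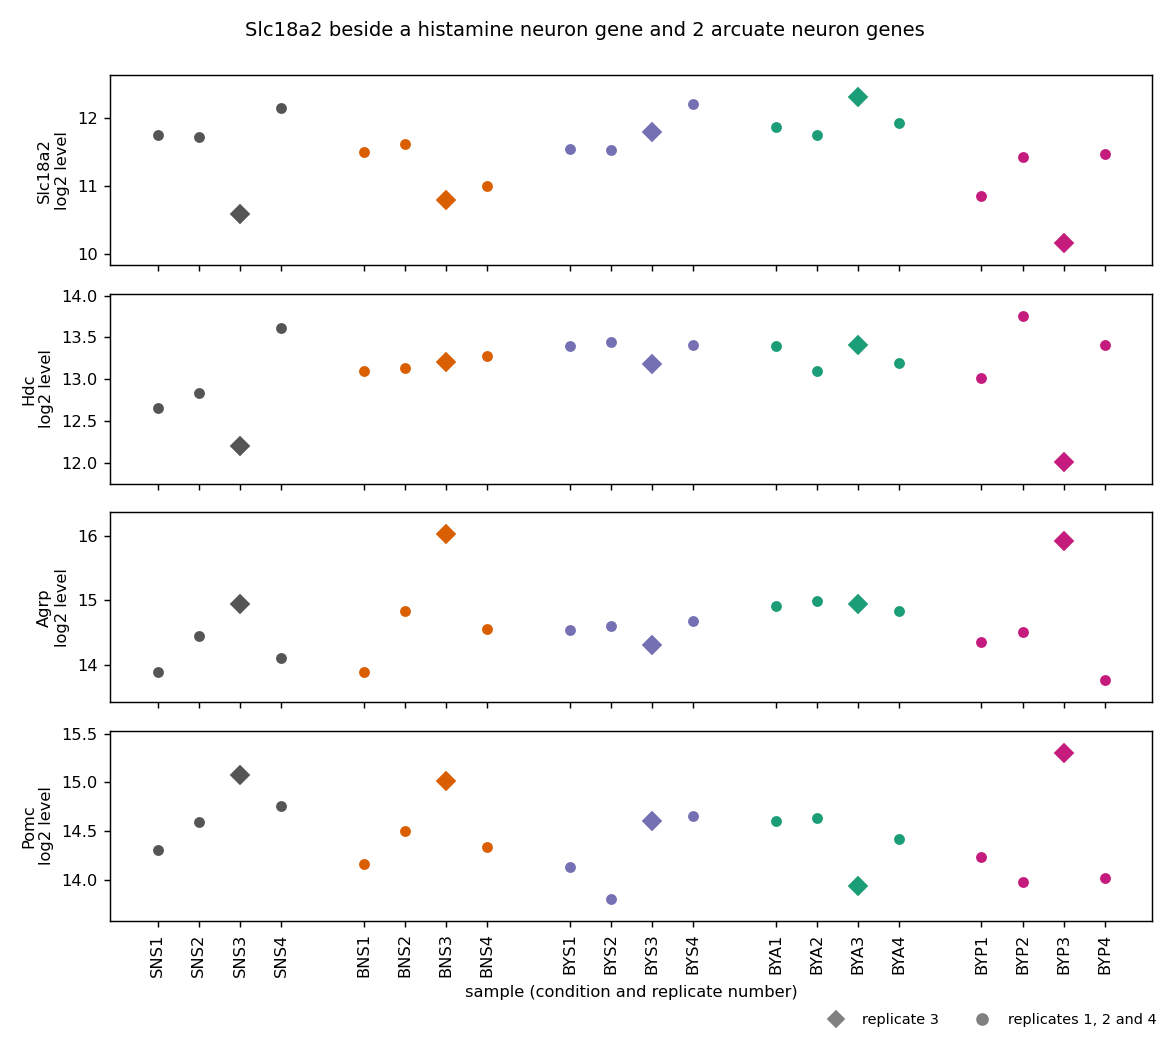
Log2 level (y axes) of Slc18a2, Hdc, Agrp and Pomc in the 20 samples (x axis, by condition and replicate number), with diamonds for replicate 3. In SNS, BNS and BYP replicate 3 is the lowest in Slc18a2 and the highest in Agrp and Pomc, and in SNS and BYP it is the lowest in Hdc.

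Slc6a3 was close to background. Its brighter probe, the only one kept, was well above background in 1 SNS, 3 BNS, 4 BYS, 2 BYA and 2 BYP samples, and passed the filter through BYS alone. Of these 12 samples, 9 were labelled with Cy5 and 3 with Cy3. Its level was 7.56, 7.30, 7.35 and 8.00 in SNS, of which the last was well above background, and 7.93, 8.04, 7.42 and 8.14 in BNS. It was 8.07, 8.13, 7.97 and 7.66 in BYS, 7.77, 8.30, 8.14 and 7.87 in BYA, and 7.85, 8.00, 7.49 and 8.15 in BYP, and each condition overlapped every other.

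With most SNS values not well above background, the size of a difference from SNS is uncertain, and the gene was tested only because BYS passed the filter. BYA differed from SNS by 0.47 ± 0.17 (SE, n = 4 and 4; limma adjusted p = 0.049), BYS by 0.40 ± 0.17 (adjusted p = 0.0919), BNS by 0.33 ± 0.17 (adjusted p = 0.162) and BYP by 0.32 ± 0.17 (adjusted p = 0.17). The call in BYA held in 2 of 8 fits that left out 1 sample, and without BYA replicate 3 the difference was 0.39 (adjusted p = 0.126). Over the other alternatives its adjusted p ran from 0.0138 to 0.57. The dimmer probe was well above background in 1 of 20 samples, BYS replicate 4.

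Drd2, the inhibitory receptor that also serves as an autoreceptor of dopamine neurons, was measured by 10 spots each of a pair of probes. The brighter probe was well above background in all 20 samples and read 10.60, 10.62, 10.83 and 10.76 in SNS, 10.55, 10.48, 10.77 and 10.46 in BNS, and 10.61, 10.51, 10.49 and 10.58 in BYS. It read 10.73, 10.46, 10.72 and 10.65 in BYA and 10.80, 11.00, 10.85 and 10.74 in BYP. With this probe BYP lay wholly above BYS and BYA. The share of all probes for which this holds was not computed, and on the mean of both probes BYP overlapped BYA. Tested by itself, this probe was higher by 0.30 ± 0.09 in BYP than in BYS (limma adjusted p = 0.404), by 0.21 ± 0.09 than in BYA (adjusted p = 0.342) and by 0.28 ± 0.09 than in BNS (adjusted p = 0.125), none past the threshold.

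The dimmer Drd2 probe, the sequence above, lay between 7.67 and 7.91 over all samples and passed the filter through BYS alone. It was well above background in 10 of 10 Cy5 samples and 3 of 10 Cy3 samples. Its BYP values of 7.85, 7.78, 7.86 and 7.74 overlapped those of BYS, at 7.85, 7.79, 7.80 and 7.80, so BYP stood out with the brighter probe alone. The dimmer probe was well above background in 2 BYP samples, so it is a weak check on the brighter one. On the mean of the probes, which includes this dim one, BYP differed from BYS by 0.15 ± 0.07 (limma adjusted p = 0.618). All BYP values of the mean lay above all BYS values, as in 2.55% of all genes. The other differences of the mean lay between -0.10 and 0.10, and 0 of the 10 comparisons were called.

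Drd5, a stimulatory receptor, was well above background in 18 of 20 samples. Its level was 8.24, 8.49, 8.52 and 8.75 in SNS, 8.31, 8.33, 8.44 and 8.46 in BNS, and 8.12, 8.20, 8.23 and 8.30 in BYS. It was 7.79, 8.29, 8.45 and 8.43 in BYA and 8.24, 8.29, 8.26 and 8.20 in BYP, where SNS replicate 1 and BYA replicate 1 were not well above background. BYS and BYP lay wholly below BNS, as 3.87% and 6.97% of all genes did. SNS had the highest mean, and relative to it Drd5 differed by -0.11 ± 0.12 in BNS, -0.29 ± 0.12 in BYS, -0.26 ± 0.12 in BYA and -0.25 ± 0.12 in BYP, with limma adjusted p from 0.0849 to 0.496. With loess within and Aquantile between the 9 arrays that hold only these rats, BYS, BYA and BYP passed against SNS, which leaves out BYA replicates 3 and 4. Without BYA replicate 3 alone, BYA against SNS was -0.35 (limma adjusted p = 0.0339; 0.0177 to 0.425 over the other alternatives).

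Drd1, Drd3 and Drd4 lay at the bottom of the scale. Drd1, the main stimulatory receptor of the striatum, was well above background in 2 samples, BYS replicates 2 and 4, and its level ran from 7.30 to 7.78. Drd3 and Drd4 were each well above background in 4 samples, replicates 2 and 4 of BNS and BYS, with levels from 7.34 to 7.84 and from 7.22 to 7.63. All samples in which these 3 genes were well above background were labelled with Cy5. No fold change is given for them, since they did not pass the filter in any condition.

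For the genes around this pathway, 73 listings in 6 lists were made. Among the betamethasone-exposed conditions, 0 genes of these lists were called in any of the 6 comparisons. Median scaling called some in 4 of the lists between BYP and BYS, where it called 16.5% of all genes, and loess with Aquantile called 1 transcription factor between BYP and BNS. Against SNS there were calls in each list, and these again cannot be told apart from the slide. Of all genes, 15.1% were higher and 13.4% lower in BNS than in SNS, 14.5% and 12.6% in BYS, 15.8% and 15.4% in BYA, and 15.5% and 13.5% in BYP. Without BYA replicate 3, no count of these lists in BYA against SNS moved by more than 1 gene, and of 15 calls in BYA against SNS 1 was lost, that of Stx1a (adjusted p = 0.0732).

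Of the 6 genes that make or recycle tetrahydrobiopterin, the cofactor of Th, all passed the filter. Gch1, the first and limiting enzyme of its synthesis, was 8.81, 9.08, 8.97 and 8.84 in SNS. It was 9.85, 10.21, 10.22 and 9.89 in BNS, 9.68, 9.47, 10.55 and 10.38 in BYS, 9.82, 9.17, 9.87 and 10.26 in BYA, and 10.43, 10.14, 10.54 and 10.36 in BYP. Every betamethasone-exposed sample lay above every SNS sample. Gch1 rose by 1.12 in BNS, 1.1 in BYS, 0.85 in BYA and 1.44 in BYP relative to SNS, each ± 0.22 (SE), with limma adjusted p from 0.000135 to 0.00786, and from 0.000938 to 0.0166 with arrays as random blocks. With the processed signal, BYA against SNS had an adjusted p of 0.0632.

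Qdpr, which recycles the spent cofactor, was 13.79, 13.75, 13.77 and 13.81 in SNS and between 14.20 and 14.69 in the other samples. It rose by 0.52 to 0.66 relative to SNS (limma adjusted p from 2.72e-05 to 0.000231), but under median scaling the difference of BYP from SNS was -0.02 and no comparison with SNS passed. With the processed signal no comparison of Qdpr with SNS passed either (limma adjusted p from 0.0806 to 0.294). Spr, which completes the synthesis, was 10.70, 10.62, 10.67 and 10.65 in SNS and between 10.03 and 10.51 in the others. It fell, with differences from -0.44 to -0.36 (adjusted p from 0.00291 to 0.0103). With the processed signal BYA against SNS turned to 0.19, and no comparison of Spr with SNS passed (limma adjusted p from 0.449 to 0.602). Gchfr, which regulates Gch1, was called between BNS and SNS alone, 0.46 ± 0.17 (adjusted p = 0.0465). Counts were 3 higher and 1 lower in BNS, and 2 higher and 1 lower in BYS, BYA and BYP, and with the array as a random block 2 higher and 1 lower in all 4.

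Of 7 genes of dopamine breakdown, Sult1a1, a sulfotransferase, rose by 1.66 in BNS, 1.5 in BYS, 1.46 in BYA and 2.04 in BYP relative to SNS, each ± 0.24 (SE; limma adjusted p from 8.52e-06 to 0.00021). It was 9.23, 9.33, 9.32 and 9.29 in SNS and between 9.93 and 11.48 in the others, and passed the test against SNS under median scaling, the processed signal and the array block alike. Aldh3a1 fell in BNS by 1.28 on the log2 scale (adjusted p = 0.0115) but differed by 0.07 with the processed signal. Its BNS levels were 8.20, 8.23, 6.35 and 6.28, against 8.42 to 8.75 in SNS. The low ones, replicates 3 and 4, shared an array, and the gene was well above background in 18 of 20 samples. Aldh2 fell in BYA by 0.38 (adjusted p = 0.0366) but differed by 0.09 with the processed signal. In all, 1 gene rose and 1 fell in BNS and in BYA, and 1 rose in BYS and in BYP, whereas with arrays as random blocks 1 gene fell in BNS and 0 elsewhere.

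**Figure D5:**
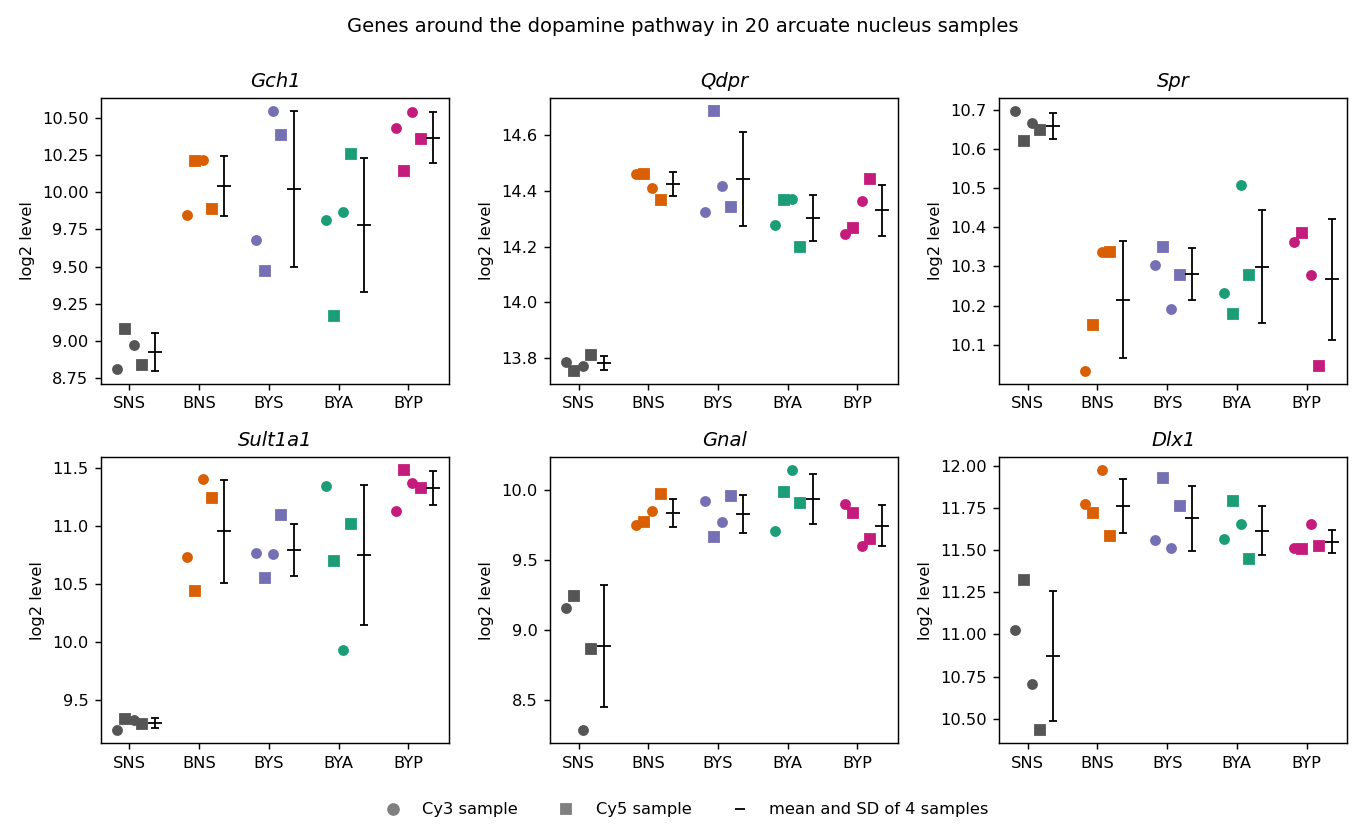
Log2 level (y axis) of Gch1, Qdpr, Spr, Sult1a1, Gnal and Dlx1 in the 5 conditions (x axis), with circles for Cy3 samples, squares for Cy5 samples and bars for the mean and SD of 4 samples. The SNS samples lie below all others in Gch1, Qdpr, Sult1a1, Gnal and Dlx1 and above all others in Spr.

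Of 23 genes of dopamine receptor signalling, 22 passed the filter, and the counts against SNS were 2 higher and 5 lower in BNS, 2 and 3 in BYS, 1 and 3 in BYA, and 2 and 2 in BYP. Gnal, the G protein subunit that couples Drd1 to adenylyl cyclase, was 9.16, 9.24, 8.29 and 8.87 in SNS and between 9.60 and 10.14 in the others. It rose by 0.95, 0.94, 1.05 and 0.86 in BNS, BYS, BYA and BYP, each ± 0.16 (limma adjusted p from 9.87e-05 to 0.000721), and passed under median scaling, the processed signal and the array block. Ppp1r9b, which anchors a phosphatase in spines, fell in BNS, BYS and BYA, with differences of -0.35, -0.33 and -0.38 (adjusted p = 0.031, 0.0421 and 0.0187), none of which passed with the processed signal. Kcnj6 rose in BNS, BYS and BYP by 0.47, 0.57 and 0.53 (limma adjusted p = 0.0484, 0.0206 and 0.0281). Also called lower were Gnao1, Adcy5 and Rgs9 in BNS, Rgs9 and Dnajc14 in BYS, Gnas in BYA, and Dnajc14 and Gnai3 in BYP. With the array as a random block only Gnal was called in BNS, BYS and BYP, and Gnal and Gnai3 were called in BYA, where Gnai3 fell (-0.50 ± 0.14, adjusted p = 0.00932 without the block) but differed by 0.07 with the processed signal.

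Of 10 genes of vesicles and terminals, 9 passed, and the counts against SNS were 2 higher and 2 lower in BNS, 2 and 1 in BYS, 2 and 0 in BYA, and 2 and 2 in BYP. With arrays as random blocks they were 1 and 1, 1 and 0, 1 and 0, and 2 and 0, and under median scaling 0 and 0, 1 and 0, 1 and 0, and 0 and 1. Vamp2, a vesicle protein of the fusion machinery, rose by 1.27 in BNS, 1.33 in BYS, 1.52 in BYA and 1.21 in BYP relative to SNS, each ± 0.28 (limma adjusted p from 0.00059 to 0.00371). Its SNS levels were 12.37, 10.92, 12.90 and 12.62, so replicate 2 lowered the SNS mean, and BYP overlapped SNS. Under median scaling BNS and BYP did not pass (limma adjusted p = 0.109 and 0.16). Stx1a, its partner in the membrane, rose by 0.62 to 1.09 (adjusted p from 0.00193 to 0.0459), with 1 SNS value missing. With the array block and with the processed signal Stx1a passed in BYP alone (limma adjusted p = 0.0145 and 0.0364). Under median scaling no comparison of Stx1a with SNS passed (limma adjusted p from 0.157 to 0.514). Sv2c fell in BNS, BYS and BYP by 0.72, 0.47 and 0.58 on the log2 scale and was well above background in 13 of 20 samples. Sv2a fell in BNS (-0.73 ± 0.25, adjusted p = 0.0376). It did not pass with the array block, median scaling or the processed signal (limma adjusted p from 0.0549 to 0.406). BNS replicates 1 and 2, at 13.14 and 13.07, lay within the SNS range of 13.06 to 13.54. BNS replicates 3 and 4, which shared another array, read 12.04 and 12.17. Syngr3 fell in BYP (-0.37 ± 0.11, adjusted p = 0.0189), where it differed by 0.04 with the processed signal. Of 16 transcription factors of dopamine neurons, 9 passed, and Dlx1, of hypothalamic dopamine and GABA neurons, rose by 0.89, 0.82, 0.74 and 0.68 in BNS, BYS, BYA and BYP, each ± 0.15 (adjusted p from 0.000364 to 0.00331). En1 rose and Foxa1 fell in all 4, but these were well above background in 10 and 9 samples, and each changed sign in 1 comparison under median scaling. With arrays as random blocks, Dlx1 was called in all 4 and En1 in 0, whereas Dlx1 was called in BYS alone under median scaling, and in BNS and BYS with the processed signal.

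The list of tuberoinfundibular dopamine neuron genes had 9 of 11 members that passed and 8 well above background in all 20 samples, with the prolactin receptor gene Prlr in 13. Calb1 rose in BNS and BYS by 0.79 and 0.76 (limma adjusted p = 0.0218 and 0.0276), with 1 SNS value missing. Gad2, which makes GABA, rose in BYS, BYA and BYP by 0.69, 0.79 and 0.67 (adjusted p = 0.0332, 0.015 and 0.0365). With the array as a random block 0 genes of this list were called. The list's median difference from SNS was lowest in BNS (-0.02, against -0.04 over all genes) and highest in BYS (0.14, against -0.03).

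The genes whose levels over the 20 samples were most like those of Th, after the dye effect had been removed, were Ripor3 (Pearson's r = 0.789), Gimap9 (0.787) and a probe without a symbol (0.765). For Ddc they were Ncbp1 (0.831), Gtf2e2 (0.813) and Tmem222 (0.809), and for Slc18a2 Wbp2nl (0.8), Ins1 (0.752) and Grxcr2 (0.752). For Drd2 they were a pair of probes without a symbol (0.821 and 0.815) and Gypc (0.791). These are the 3 highest of 16299 genes with a value in every sample, and each r describes samples that share slides and arrays. Among the dopamine genes themselves, Th and Drd2 had an r of 0.611 and Th and Slc18a2 an r of -0.549 over the same 20 samples, which share the conditions and slides as well.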

How the data were processed

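The authors deposited the scanner software's output, 1 file for each array. Spot signals and local backgrounds in the deposited files are intensities that were not normalized, and the processed signals are intensities, background-subtracted and dye-normalized within the array. Per the labels the software was Feature Extraction 10.7.3.1, per the file headers 11.5.1.1. The 20 samples were hybridized to 11 arrays on 6 slides, 9 of them with 2 samples of 1 condition. The remaining 2 arrays share a channel with another series, whose 82 columns were not used. Array coordinates are of build rn4.

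Of 42877 spots per array that are not controls, outlier values (1.18%) were left out. Background was corrected with normexp (offset 50) in limma 3.58.1 (R 4.3.3, statmod 1.5.0), the 20 channels were brought to the same quantiles and put on a log2 scale, and spots of a probe and probes of a gene were averaged. Probes stayed in if a fraction of 0.5 or more of their spots was flagged well above background in each of the 4 samples of some condition. The number of arrays limits the precision. Conditions were compared with limma, in a single model that included the dye, and Benjamini-Hochberg adjustment over up to 17086 genes. On simulated data for BYP against SNS (16299 genes), 100 genes were changed by 0.5 and 100 by 1 on the log2 scale, of which 42% and 90% were called. The simulated noise was independent between channels, and 139 genes were called in all, against 4940 in the actual comparison. These shares are therefore not the sensitivity of the actual test. The labels do not say whether animals of a condition were littermates, and p-values measure the spread between these samples.

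Genes named are all 9 members, up to 4 called genes with the lowest p per list and comparison, defining markers, and the 3 genes most alike over 20 samples. Members and lists were chosen with earlier results of these data known. Alternatives were median scaling, the processed signal scaled to the 75th percentile, loess with Aquantile, no filter on dim probes, array or slide as a random block, no dye covariate, the replicate number as a block, only the conditions compared, the brightest probe, the methods' t-test and leaving out each sample. A gene of the breakdown list is not reported here.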

Additional observations from a re-analysis of the deposited data

Results flagged for a closer look

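The levels of the dopamine genes and of their single probes were searched for samples far from the other 3 of their condition, in 75 groups of 4. By chance about 1 in 20 groups would be marked, and 2 were. Drd3 in BNS replicate 1 was low, at 7.47 on the log2 scale, and Drd4 in BYA replicate 3 was low, at 7.32. Neither probe was well above background in that sample, and the channel of BYA replicate 3 is the uncertain one.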

How the results depend on the processing

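Leaving out 1 sample gave 0 to 1 called dopamine genes in BYS against SNS, 0 to 1 in BYA against SNS, 1 to 3 in BYP against SNS (3 without SNS replicate 3, Th, Ddc and Slc18a2) and 0 to 2 in the F-test, against 0, 1, 1 and 0 in all samples, and 0 in the other 7 comparisons. With all samples, 27.1%, 31.3%, 28.9% and 30.3% of all genes were called in that order. The shares with 1 sample left out are not given, so whether these counts are particular to the dopamine genes cannot be told. The slide as a random block called 2 in BNS against SNS, 1 in BYP against BYA (Slc18a2), 3 in BYS against SNS, 3 in BYA against SNS, 4 in BYP against SNS and 5 in the F-test, against 47.2%, 5.43%, 45.3%, 45.1%, 47% and 60.5% of all genes, with a correlation of -0.124 that rests on BYA alone, the only condition on more than 1 slide. Treating arrays as random blocks (correlation 0.368) called 0 in BYA and 0 in BYP against SNS, as did using only the samples of the conditions compared, and the methods' t-test after Benjamini-Hochberg adjustment. Of all genes, the array block called 19.2% and 15.4% there, and the fit of only the compared conditions 17.7% and 18.5%. Median scaling called 2 in BYP against BYS (Slc18a2 and Slc6a3), 0 in BYA and 2 in BYP against SNS and 1 in the F-test. Of all genes it called 16.5%, 8.2%, 28.7% and 16.4% in that order. The processed signal and the fit without the dye called 0 in BYA against SNS. Loess with Aquantile called 1 in BYS against SNS, 2 in BYP against SNS and 1 in the F-test (Drd5). Of all genes it called 29.4%, 31% and 33.2% in that order. Without the filter on dim probes, 2 were called in BYA and 2 in BYP against SNS, against 25.2% and 22.4% of all genes. Drd3 was among them, but its probe was well above background in 0 samples of SNS, BYA and BYP. Its calls therefore compare values at the background and show no difference in Drd3. The brightest probe and each probe by itself, the latter chosen after the data were seen, called 1 in BNS against SNS (Ddc), as did the methods' t-test before and after adjustment. The brightest probe called 29.2% of all genes there. Unadjusted, the methods' t-test also gave 1 in BYS against BNS, 3 in BYP against BYS, 1 in BYP against BYA, 1 in BYA against BNS and 1 in BYS against SNS. Its shares of all genes were 8.82%, 6.98%, 8.66%, 11.8% and 33.8% in that order. The cause was not tested.

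Replicate numbers gave no pairing: deviations of same-numbered samples had a mean correlation of 0.0031 (from -0.239 to 0.28). With the replicate block 1 dopamine gene was called in BYS against SNS and 0 in BYA against SNS, against 28.5% and 32.6% of all genes. For 13 fold changes with an unadjusted p under 0.05, 2 of 234 alternative values turned, those of Th in BYP against BYS (-0.0454) and BYP against SNS (-0.11), both under median scaling, which moved the median of all genes by -0.17 to 0.15. Of the other 47 fold changes, 57 of 846 alternative values turned. Counts over all genes moved by more than 1.5 times, for example in BYP against BNS from 257 to 12 (array block), 2478 (slide block) and 0 under median scaling, and in BYP against BYS from 6 to 2820 under median scaling.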
